A study of Drosophila melanogaster with 2 samples.

Results

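The 5 GATA factor genes of Drosophila melanogaster (srp, GATAe, GATAd, pnr and grn) and ush, the gene of their cofactor, were examined in a map of Hr78-GFP binding. These 6 genes, of 13945 protein-coding genes on the 6 chromosome arms, were chosen by name because the GATA motif had been seen to be raised at summits of this map, so their summits are described here and were not tested. The chromatin was that of whole embryos, male and female, at 8 to 16 h of age. In their transgenic line, Hr78 is stably expressed as a fusion with eGFP at the C-terminal end, and an anti-GFP antibody was used for the precipitation. Biological replicates 1 and 3 made up the single group. No untagged or untreated embryos were analysed here. A whole embryo mixes many cell types, so binding in more nuclei and stronger binding per nucleus cannot be told apart, and the tagged protein stands in for the native receptor.

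GATA factors are zinc-finger transcription factors that bind the core GATA. In the fly, srp (serpent) is required for blood cells, fat body and endoderm, and GATAe acts after srp in the midgut. The gene pnr (pannier) patterns the dorsal ectoderm, the heart and the dorsal thorax, and grn (grain) acts in the posterior spiracles and in motor axon guidance. GATAd is a further GATA factor gene of the fly. The product of ush (u-shaped) is a multi-zinc-finger protein of the Friend-of-GATA family, which binds Pnr and Srp and changes their activity. Hr78 is an orphan nuclear receptor, and receptors of this class bind variants of the hexamer AGGTCA, often as direct repeats.

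Peaks were read from the authors' optimal list of 5723 peaks and from their longer pooled list of 30000 peaks. The optimal list is named as thresholded on the irreproducible discovery rate (IDR), a measure of agreement between replicates, so agreement between replicates is partly built in. Each peak carries a signal value on the authors' own scale, which was compared within a list only. A summit was assigned to a gene when it lay in the annotated gene span extended by 2 kb on each side, here called the window. An optimal summit was present in the window of 5 of the 6 genes, and 29.0% of all protein-coding genes had one. The 6 windows held 20 optimal summits, 12 of them at ush and 8 at the GATA factor genes, and 115 pooled summits. These optimal summits were 0.349% of the list. Their signals ran from 273 to 5806 with a median of 459, beside a median of 441 over all optimal peaks.

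Sequence around 7 of the 20 optimal summits is shown because these windows hold the strongest peaks and each combination of the motifs searched. They were picked after their values had been seen. Each line is 101 bp of genome release 6 (dm6, RefSeq), centred on the summit and named by its distance in kb from the gene's first start site. Capitals mark the GATA motif WGATAR (W is A or T, R is A or G) and the hexamer RGKTCA (K is G or T), on either strand.
ush +4.9 kb (chr2L:481069-481169, plus strand): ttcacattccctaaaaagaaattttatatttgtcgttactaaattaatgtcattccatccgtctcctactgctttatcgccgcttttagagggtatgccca
ush +3.8 kb (chr2L:479985-480085, plus strand): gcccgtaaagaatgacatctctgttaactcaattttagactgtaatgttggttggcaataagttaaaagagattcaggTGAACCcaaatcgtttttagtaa
ush +8.5 kb (chr2L:484696-484796, plus strand): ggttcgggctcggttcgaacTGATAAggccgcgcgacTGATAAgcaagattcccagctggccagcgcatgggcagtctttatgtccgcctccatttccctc
ush +40.1 kb (chr2L:516226-516326, plus strand): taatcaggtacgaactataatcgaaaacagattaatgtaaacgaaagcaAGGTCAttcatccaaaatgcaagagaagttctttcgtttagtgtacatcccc
ush +44.6 kb (chr2L:520767-520867, plus strand): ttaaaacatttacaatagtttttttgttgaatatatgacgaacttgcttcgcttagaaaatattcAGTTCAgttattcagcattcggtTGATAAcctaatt
GATAe -0.6 kb (chr3R:16008462-16008562, plus strand): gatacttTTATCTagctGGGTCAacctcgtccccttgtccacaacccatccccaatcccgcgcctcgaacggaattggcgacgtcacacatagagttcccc
GATAd +1.3 kb (chr2L:10334949-10335049, plus strand): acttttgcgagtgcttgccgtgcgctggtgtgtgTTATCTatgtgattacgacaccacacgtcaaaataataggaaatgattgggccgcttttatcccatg
The strongest ush window holds no capitals, and the next strongest holds 1 hexamer. The window at +8.5 kb holds a pair of GATA motifs, and the window at +40.1 kb holds the form AGGTCA centred 1.5 bp from the summit.

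At ush, the peaks were the most numerous and reached the highest signal of the 6 genes. The gene spans chr2L:476220-540560 on the plus strand, and its 68.3-kb window held 12 optimal summits, or 1.76 per 10 kb, and 60 pooled summits. By number of optimal summits, ush ranked 16 among all protein-coding genes, and 22 genes, ush included, had at least as many. Longer windows hold more summits, and 65.4% of the 358 genes with windows over 50 kb had an optimal summit. Among these 358 genes the median was 2 optimal summits and the maximum 23. As many as ush or more were held by 17 genes (4.75%), ush included. The ush summits carried 84.7% of the summed optimal signal of the 6 genes.

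**Figure D1:**
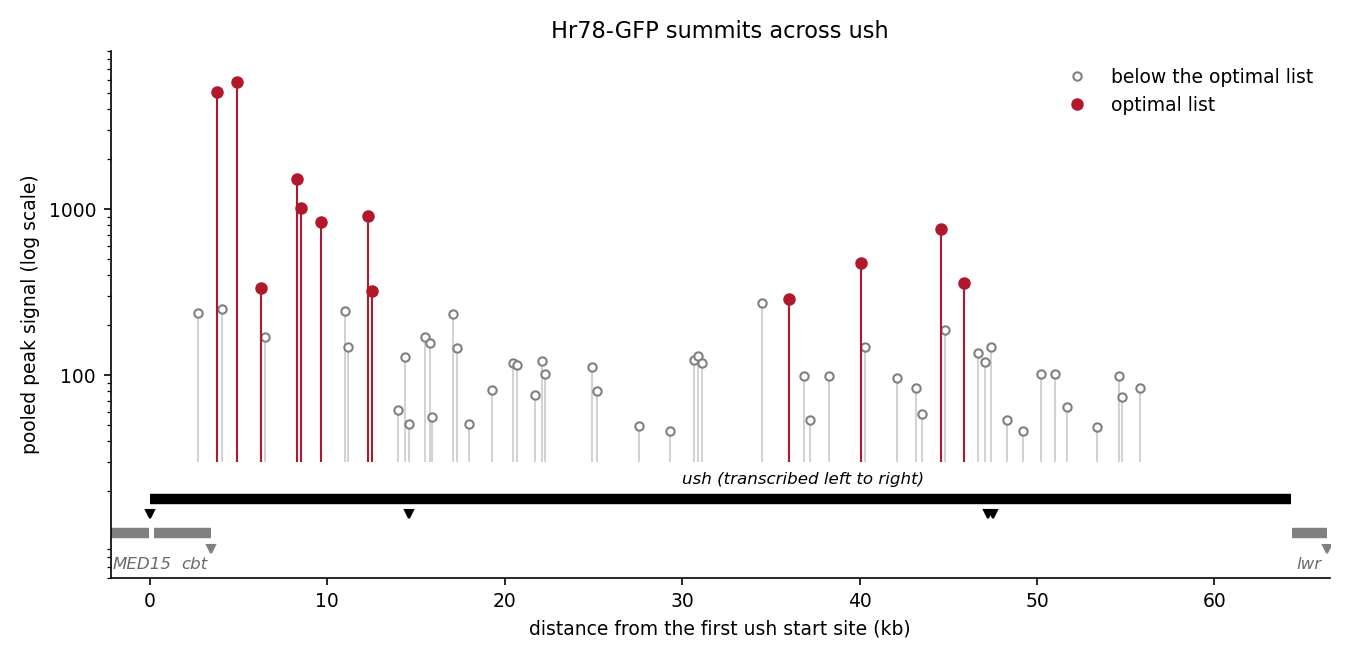
Pooled peak signal (log scale) of each summit in the ush window against its distance from the first ush start site in kb. Filled red points are the 12 optimal summits, open points the weaker summits, the black bar is the ush span, grey bars are neighbouring genes and triangles are annotated start sites; the optimal points form a cluster of 8 between +3.8 and +12.5 kb and a cluster of 4 between +36.0 and +45.9 kb.

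The strongest of all was at chr2L:481119, in the first ush intron. It had a pooled signal of 5806, which is rank 12 of the 5723 optimal peaks. Its signal was 2986 in replicate 1 and 2799 in replicate 3, ranks 16 and 11 of the replicates' own lists. The summit 1084 bp to its left, at chr2L:480035, had 5058 (rank 18), with 2623 in replicate 1 and 2463 in replicate 3. Both lay in the same called region, chr2L:478681-483120, together with a much weaker summit of 336 at chr2L:482498. Further into the intron were summits of 1525 at chr2L:484545, 1018 at chr2L:484746, 839 at chr2L:485849 and 904 at chr2L:488565. The replicates gave 830.0 and 696 at the first of these, 427 and 428 at the next, 392 and 433 at chr2L:485849, and 481 and 408 at chr2L:488565, with replicate 1 first. Replicate signals come from separate lists and are not on a scale shared with the pooled values.

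The highest ush peaks lay nearer to another gene. The gene cbt (cabut), which encodes a zinc-finger transcription factor of the TIEG family, lies within the first ush intron and is transcribed on the other strand. Of the 12 ush summits, 5 were nearer to the cbt start site than to any ush start site, with signals of 336 to 5806 (median 1525). They held 77.7% of the summed optimal signal at ush. The summit at chr2L:480035 was 347 bp from the cbt start site and the strongest summit was 1431 bp from it. Among protein-coding genes, the other 7 were nearest to ush itself, with signals of 288 to 904 (median 473). With the start sites of all annotated genes, 6 of the 12 were nearer to another gene. The summit added was 288 at chr2L:512242, 10006 bp from the start site of lncRNA:CR46259 and 11224 bp from that of ush. Over all 6 genes, the start site of another protein-coding gene was nearer for 6 of 20 summits. Noncoding start sites were also nearer than the gene's own at chr3R:16008512 of GATAe (lncRNA:CR42839) and chr3R:8155914 of grn (a tRNA gene). For all protein-coding genes, another protein-coding gene was nearer in 40.7% of pairs of a gene window and an optimal summit in it.

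Within ush, the optimal summits formed 2 clusters separated by 23476 bp. Between the first and the second start sites (14.6 kb) there were 8 optimal summits with signals from 321 to 5806. Between the second and the third (32.6 kb) there were 4, from 288 to 756, at chr2L:512242-522133. None lay beyond the third start site, although 10 pooled summits did, the highest with a signal of 148. The strongest of the downstream cluster, 756 at chr2L:520817, was 2649 bp from the third start site, and its replicate signals were 378 in replicate 1 and 371 in replicate 3. The other 3 had 473, 359.7 and 288. The weaker pooled summits across ush ran from 46.3 to 271 with a median of 102. Just upstream of the window, 3776 bp from the gene, a summit of 732 stood at chr2L:472444, 244 bp from the start site of CG4297.

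On chromosome arm 3R, srp, GATAe and pnr stand in a row on the plus strand. The stretch from the srp window to the pnr window, chr3R:15984152-16043796 (59.6 kb), holds 4 protein-coding genes, these and Jhbp4. It contained 6 optimal and 37 pooled summits. The optimal ones fell to srp and GATAe, and none to pnr. No optimal summit lay in the gaps of 1.02 kb and 2.94 kb between the 3 windows.

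At GATAe, 4 optimal summits lay in a 14.0-kb window (2.85 per 10 kb), the highest density of the 6 genes. Genes with windows of 10 to 20 kb had a median of 0 optimal summits, 47.5% of them had any, and 99 of 1662 (5.96%) had at least 4. The strongest GATAe summit, 567 at chr3R:16011825 (rank 1906), was 449 bp from the second start site, with 316 in replicate 1 and 247 in replicate 3. The summit at chr3R:16008512 had 325 and lay 593 bp upstream of the first start site and 439 bp from that of the noncoding gene lncRNA:CR42839. The other GATAe summits had 273 at chr3R:16014793, in an intron, and 329 at chr3R:16021086. The last of these lay between genes and was 4993 bp from the pnr start site but 8812 bp from a GATAe start site. In replicate 1 and replicate 3 the signals were 132 and 192 at chr3R:16008512, 125 and 152 at chr3R:16014793, and 205 and 130.3 at chr3R:16021086; the ranks were 7455 and 3118, 7964 and 4523, and 3978 and 5557 of their own lists. The 8 weaker pooled summits had 84.5 to 261. With spans extended by 5 kb, the summit at chr3R:16021086 also fell in the pnr window.

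The srp window (21.9 kb) held 2 optimal summits. One, of signal 476 at chr3R:15993283, was in the 5' UTR, 849 bp from a start site, with 239 in replicate 1 and 211 in replicate 3. The other had 383 and lay upstream, 1292 bp from the first start site, with 162 in replicate 1 and 225 in replicate 3. In the class of windows of 20 to 50 kb, 60.3% of genes had an optimal summit and 392 of 940 (41.7%) had at least 2, so the srp count was near the middle of its class. A further summit of 582 stood just outside the window, 2101 bp upstream of the gene at chr3R:15984051, in the same called region as the upstream summit. Its signals were 364 in replicate 1 and 112 in replicate 3. The 13 weaker pooled summits in the window had 59.9 to 251.

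For pnr there was no optimal summit in a 19.7-kb window. Pooled summits were present at all 6 genes and at 50.7% of all protein-coding genes. The 8 at pnr had signals from 57.1 to 212. The highest, at chr3R:16025989, was 90 bp from the first start site and had 91.7 in replicate 1 and 132 in replicate 3. It stood below the lowest optimal summit of the 6 genes, 273 at GATAe. In the list of replicate 3 alone, this summit was at rank 5461, within the first 5723, and in that of replicate 1 it was at rank 11630, outside them.

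GATAd and grn had 1 optimal summit each. The GATAd summit, 445 at chr2L:10334999 in an intron 1085 bp from a start site, had 255 in replicate 1 and 197 in replicate 3. Its window was 9.45 kb long, and 22.4% of genes with windows under 10 kb had an optimal summit. The grn summit, 392 at chr3R:8155914, was also intronic and lay 25530 bp from the only grn start site. It had 199.8 in replicate 1 and 189 in replicate 3. With 0.263 optimal summits per 10 kb over a 38.1-kb window, grn had the sparsest optimal summits of the 5 genes that had any. It nevertheless had 17 weaker pooled summits, with signals from 46.8 to 245.

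**Figure D2:**
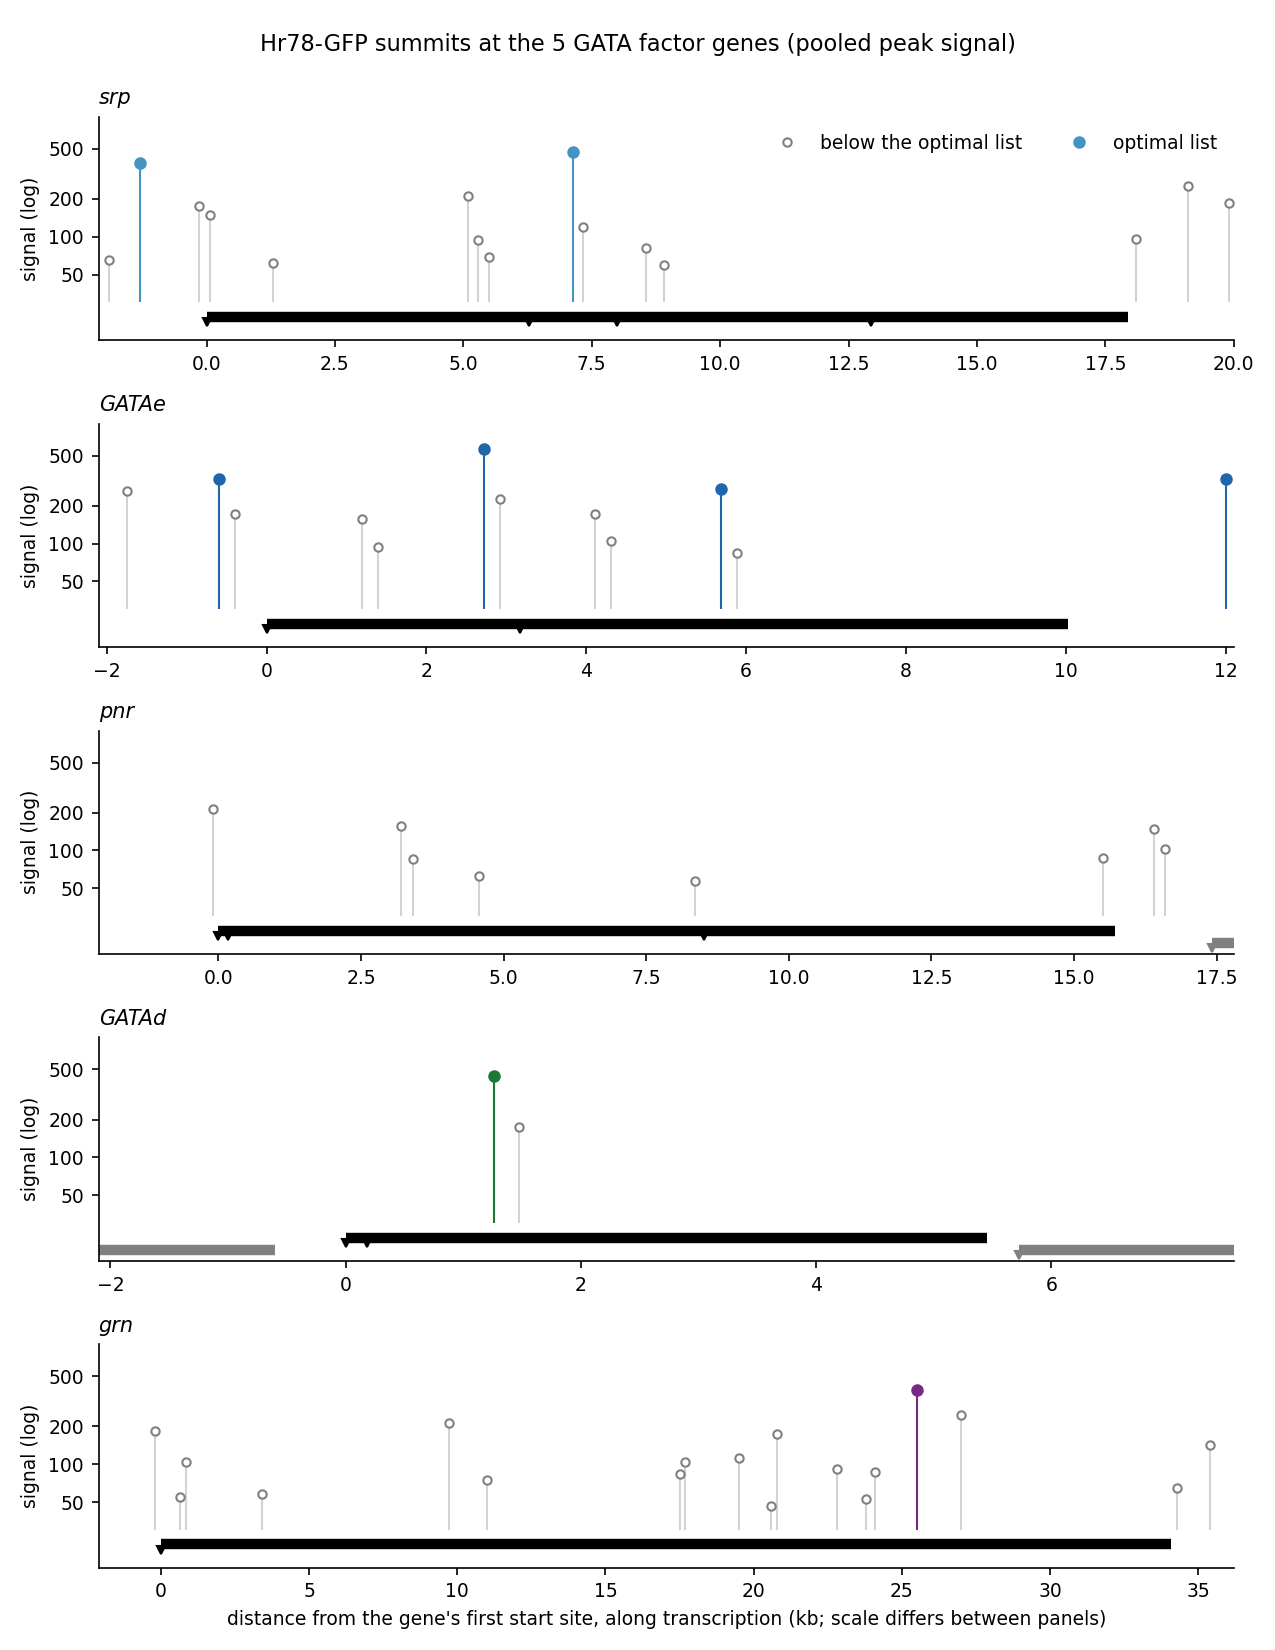
Pooled peak signal (log scale) against distance from each gene's first start site in kb, along transcription, with 1 panel per GATA factor gene and a different distance scale in each. Filled points are optimal summits and open points weaker ones, black bars are the named genes, grey bars are neighbours (Jhbp4 beside pnr, Cox10 and SamDC beside GATAd) and triangles are start sites; pnr has open points only, up to 212.

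Read per length, the 6 windows together (172 kb) held 1.17 optimal and 6.70 pooled summits per 10 kb. All gene windows merged (103108 kb) held 0.505 and 2.51. The members' density came mainly from ush and GATAe, which held 12 and 4 of the 20 optimal summits. Per 10 kb, srp (0.912) and GATAd (1.06) were also above the 0.505 of all gene windows, on 2 and 1 summits. Below it were grn (0.263) and pnr (0). At the GATA factor genes 3 of 8 optimal summits were above the median of the whole list, and at ush 8 of 12 were.

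**Figure D3:**
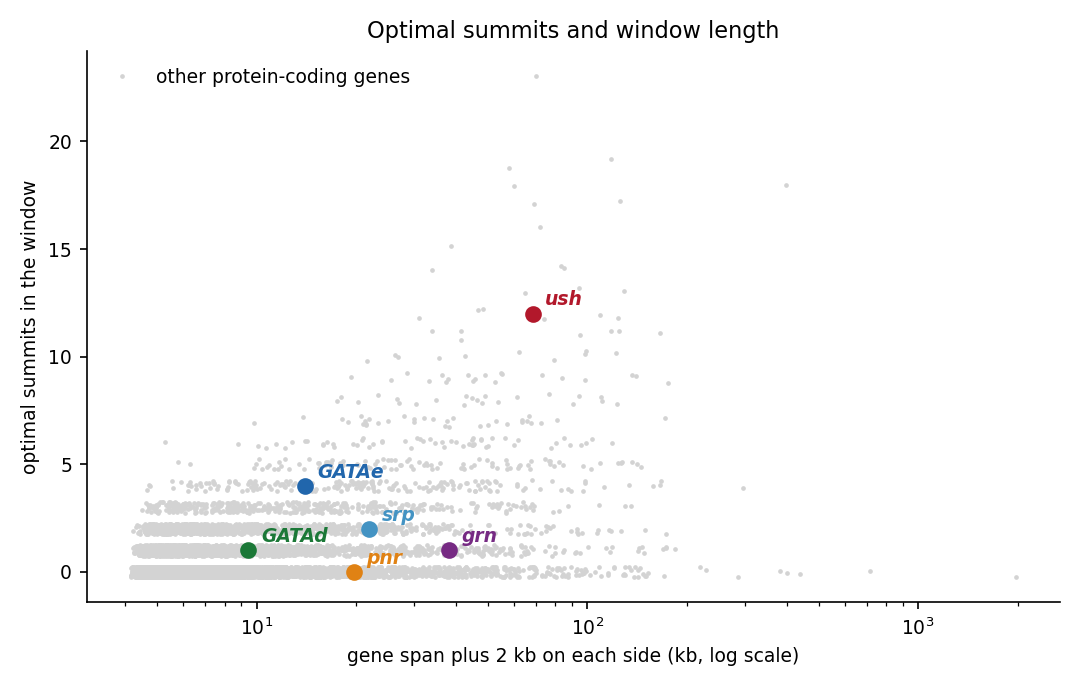
Number of optimal summits in each gene's window against window length in kb (log scale), with the 6 genes as large coloured points and all other protein-coding genes as grey points moved slightly up or down at random so that they can be seen. The ush point stands at 12 and the GATAe point at 4, while grn stands at 1 in a window of 38.1 kb.

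By the highest optimal signal in its window, ush ranked 21 among protein-coding genes, a rank that it shared with cbt because both windows hold the same peak. The genes next above were HisCl1 and prd1, which share a peak of 6093, and those next below were CG1750 and mRpL32, which share a peak of 5789. GATAe ranked 1983 with 567, between Rlb1 and mRpL47 at 568 and CG13454 and Cnx99A at 566. The ranks of srp, GATAd and grn were 2457, 2619 and 2939.

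Most of the 20 summits were away from start sites. In introns there were 14 of the 20, beside 45.3% of all optimal summits. Another 3 were within 500 bp of a start site of any annotated gene, noncoding genes included, beside 37.5% of all optimal summits. Of these 3, only the GATAe summit at chr3R:16011825 was this close to a start site of its own gene. Of the remaining 3, 2 lay between genes and 1 in a 5' UTR. At ush, 11 of 12 were intronic, so the intronic share came mainly from this gene. Of the 8 summits at the GATA factor genes, 1 each at GATAe, GATAd and grn was intronic, and none at srp.

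For each of the 20, both replicates had a summit at most 99 bp away, and over the whole list 98.3% of summits had one within 200 bp in both. Each replicate list is ranked by its own signal. A peak matched by position was among the 5723 highest of both replicates for 17 of the 20, beside 81.6% over the whole list. By the nearest replicate summit instead, 16 of the 20 were, beside 4287 of the 5723. The lowest in replicate 1 was the ush summit at chr2L:488766, with a pooled signal of 321, whose nearest summits had 80.0 in replicate 1 (rank 13423) and 76.3 in replicate 3 (rank 10979). It stands 201 bp from its stronger neighbour of 904. The summits at chr2L:484545 and chr2L:484746 are also 201 bp apart. Among the pooled summits of the 6 genes there were 28 such pairs, 150 to 250 bp apart, and the lower coordinate had the higher signal in 27. The cause was not tested.

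**Figure D4:**
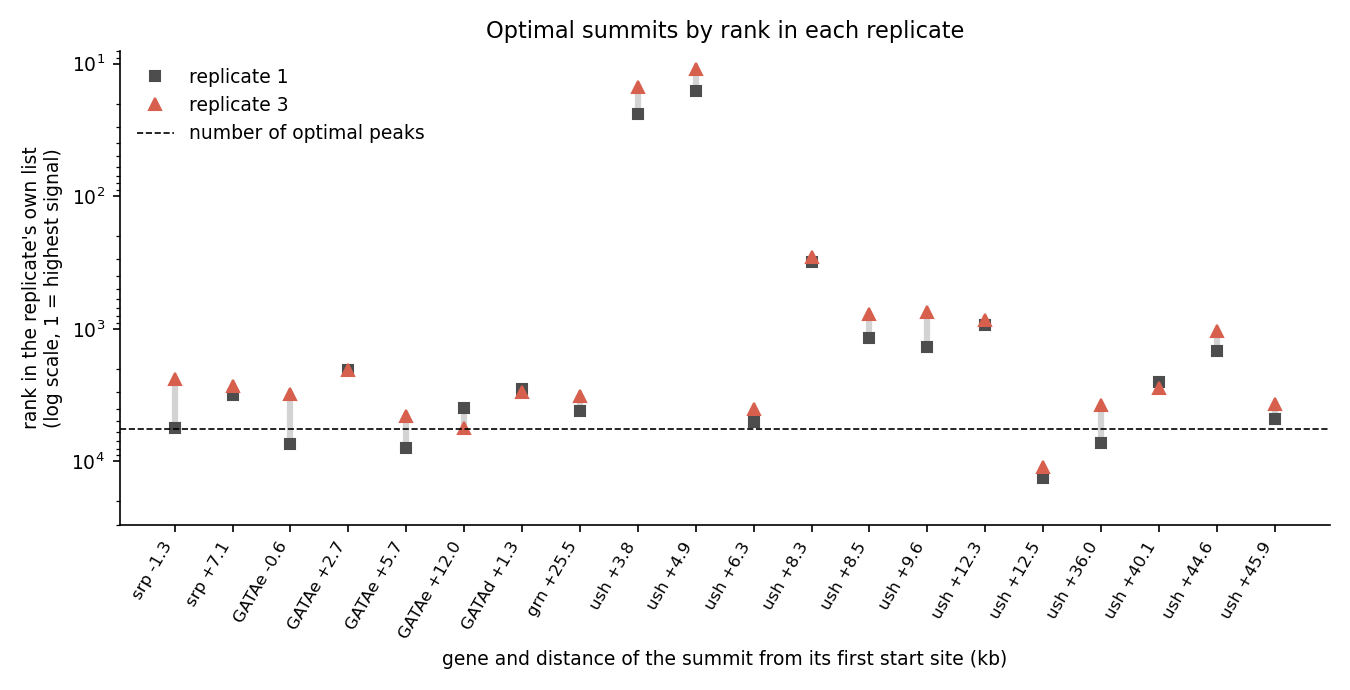
Rank of the nearest replicate summit (log scale, rank 1 at the top) for each of the 20 optimal summits in replicate 1 (squares) and replicate 3 (triangles). The dashed line stands at 5723, the length of the optimal list; the ush points at +3.8 and +4.9 kb rank 24 or better in both replicates, and the ush point at +12.5 kb is below the line in both.

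The sequences were read for motifs within 50 bp of each summit, on both strands. The forms of GATA with A or T before it and A or G after it (WGATAR) were present at 6 of 20 summits, or 30% (exact 95% interval 11.9 to 54.3%), beside 24.2% of all optimal summits. The share was 27.5% in windows 500 bp to either side of the 20 summits and 21.0% in adjoining windows across the 6 genes. The 7 sites fell to GATAe (2), GATAd (1) and ush (4), and none to srp or grn. The bare core GATA was present at 50% of the 20 summits and at 51.2% of all. CGATA, which overlaps it, was present at 10% of the 20 and at 14.2% of all optimal summits.

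The receptor hexamer in its degenerate form RGKTCA, which takes in AGGTCA, was present at 9 of 20 summits, or 45.0% (exact 95% interval 23.1 to 68.5%), beside 30.3% of all optimal summits. In the windows 500 bp away it was present at 7.50%, and in the adjoining windows across the 6 genes at 12.6%. At the summits of replicate 3 alone the share was 33.3%, beside 29.9% of all, and at those of replicate 1 alone it was 30%, beside 30.1%. The strict form AGGTCA was at 1 of the 20 summits (5.00%, interval 0.127 to 24.9%), ush +40.1 kb, beside 10% of all. A direct repeat of the hexamer with 1 base between (DR1) was at none of the 20, which allows up to 16.8%, and at 1.36% of all. Both motifs were within 50 bp at 2 summits, GATAe -0.6 kb and ush +44.6 kb, both among the sequences printed above. Neither was within 50 bp at 7, among them the strongest ush summit and the strongest GATAe and srp summits. A match is only a run of letters, and the intervals cover counting error alone.

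**Figure D5:**
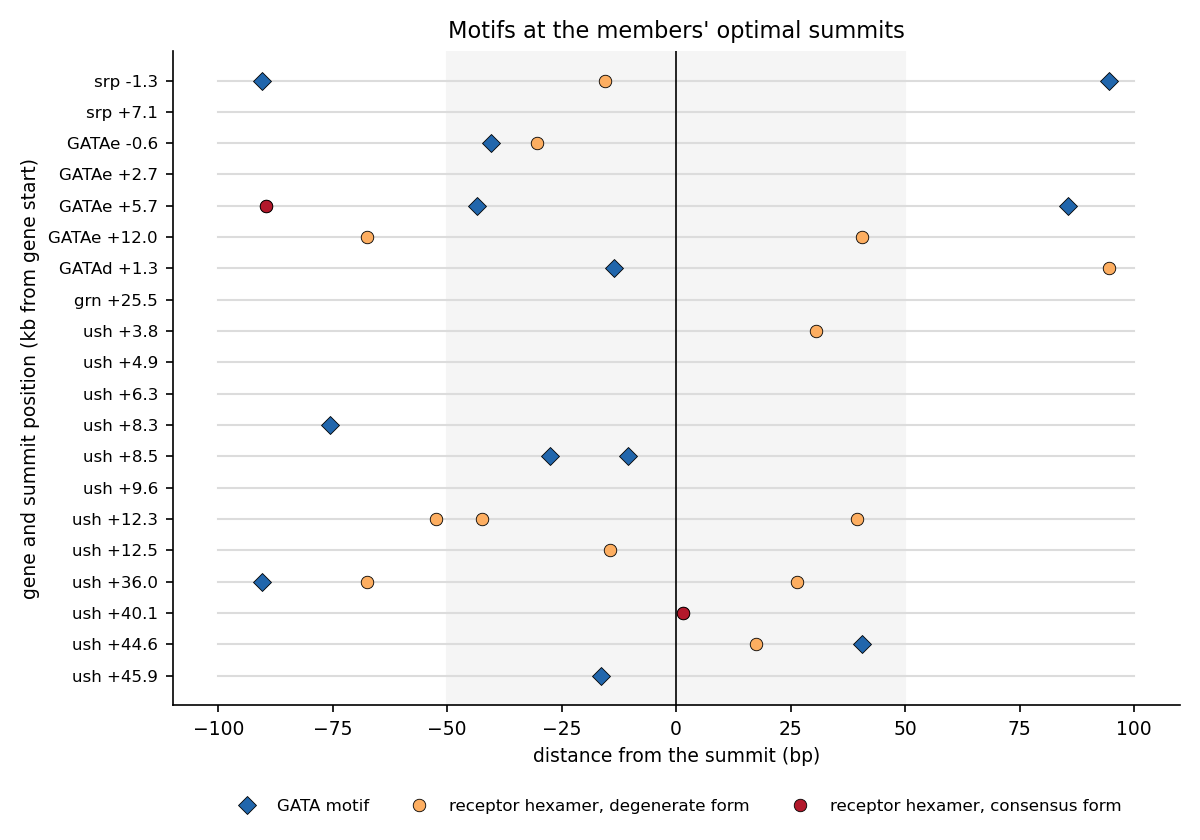
Position of each motif in bp from the summit for the 20 optimal summits, with blue diamonds for the GATA motif WGATAR, orange circles for RGKTCA and red circles for AGGTCA. The shaded band is the 50 bp on each side used for the counts; inside it 13 of the 20 summits have a motif.

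Other genes of the pathways in which GATA factors act were read from 7 lists, which hold 61 genes. An optimal summit was in the window of 27 (44.3%), beside the 29.0% of all protein-coding genes. The listed genes have a median window of 10.6 kb, beside 6.17 kb for all genes, so their windows give more room for a summit. Of all protein-coding genes, 22.4% with windows under 10 kb had one. The share was 47.5% for windows of 10 to 20 kb and 60.3% for those of 20 to 50 kb. In the list of the heart and dorsal ectoderm, where pnr acts, 10 of 14 genes had one (71.4%, median window 12.1 kb). The highest were 2055 at svp, an orphan receptor gene, with 1061 in replicate 1 and 993 in replicate 3, then 1416 at Doc3, a T-box gene, and 669 at dpp, a BMP ligand gene. H15, Hand, tup and zen had none. At tin, a heart homeobox gene, the summit of 619 was matched in replicate 3 (314) and not in replicate 1.

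The list of blood cells, where srp and ush act, had the lowest share of the 7 lists, below the 29.0% of all protein-coding genes. In it, 3 of 15 genes had an optimal summit (20%, median window 11.7 kb). They were gcm2 with 3645, nearest to the start site of Trx2, the growth factor receptor gene Pvr with 1067, and the collagen gene vkg with 313, nearest to SelT. Of the 6 genes for partners of GATA factors, 4 had one (66.7%, median window 20.8 kb). The highest were zfh1 with 617, Bx with 602, which is nearest to CG6481, and the corepressor gene CtBP with 295. Chi and lz had none. The endoderm list had 4 of 7 (57.1%, median window 8.29 kb). Its highest were 479 at the homeobox gene cad, 376 at nub and 309.7 at the forkhead gene fkh. The fat body list had 2 of 6 (33.3%, median window 6.58 kb), with 1622 at Adh, the alcohol dehydrogenase gene, and 439.7 at Fbp1. The dorsal thorax list had 2 of 9 (22.2%, median window 13.1 kb), also below the share of all genes. They were hry (hairy, a bHLH repressor gene) with 768 and mirr, an Iroquois homeobox gene, with 384. The motor neuron list had 3 of 7 (42.9%, median window 25.8 kb). These were 1095 at unc-5, a Netrin receptor gene, 617 at zfh1, also in the list of partners, and 470.0 at Lim3, nearest to CG17344.

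The optimal list ends just below the weakest of these summits. Inside it stood 273 at GATAe (rank 5693) and 288 and 321 at ush. Outside it the strongest pooled summits of the 6 genes were 271 at ush (chr2L:510690, rank 5747), 261 at GATAe and 251 at srp.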

How the data were processed

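ChIP-seq peaks were analysed from 2 biological replicates of whole embryos (replicates 1 and 3, taken from the same line). The authors deposited an optimal list, a pooled list and a list for each replicate, on assembly dm6 per the labels. The signal value of each peak is in the authors' own scale. The caller, its settings and the threshold of the optimal list were not stated in the labels used here, and read depth is unknown. Summits were placed by the deposited offset from the peak start.

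Gene spans and start sites came from Ensembl release 115 (BDGP 6.54) and sequences from genome release 6 (RefSeq). Transposable elements gave no start sites. The gene nearest to a summit was sought among protein-coding genes unless stated, while the class within 500 bp of a start site used all annotated genes. A summit counted for a gene within 2 kb of its span, and a replicate peak matched when it held the summit or had a summit within 200 bp. The replicate signals and ranks printed for summits of the 6 genes are those of the nearest replicate summit within 200 bp. Coordinates are 1-based. Intervals are exact (Clopper-Pearson) at the 95% level. No hypothesis test was run, since the genes were chosen from results of these data. The members and the pathway lists were chosen with earlier results of these data known. Named are all members, up to 6 strongest summits each, the genes next to the 2 highest in the ranking, and up to 3 genes per list; others were named after their values were seen. The gene h of the list was matched as hry. The summit assignment and motif search were checked on simulated data. Python 3.11.15, numpy 2.4.6, scipy 1.17.1, pandas 2.3.3 and matplotlib 3.10.9 were used.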

Additional observations from a re-analysis of the deposited data

How the results depend on the processing

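Of 160 values recomputed under other settings, 139 were labelled the same and 21 moved. Counts were the same within 1.5 times, highest signals only when equal, and motif shares when inside the interval of the 20 summits. Those intervals are wide, so a share labelled the same can still differ. The WGATAR share was 15% within 25 bp, beside 13.2% of all optimal summits. Within 100 bp it was 45%, beside 39.6%, and neither was labelled moved. The count of 20 optimal summits became 11 when only peaks above the median of the optimal list were used. That setting keeps 2861 of the 5723 peaks, so a fall of about this size is built in. The count was 17 with no extension of the gene spans and 22 with 5 kb. The 5 ush summits nearer to cbt became 2 with 1 summit per called region. The share of summits with RGKTCA was 20% within 25 bp, beside 17.7% of all optimal summits, and 36.4% above the median, beside 34.9%. The pathway genes with an optimal summit numbered 14 when it had to lie within 1 kb of a start site, against 27.

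Using 1 replicate alone, the summits numbered 20 to 24, the pooled summits 111 to 120 and the members with a summit 5 to 6, the sixth being pnr in replicate 3. The ush summits nearer to another gene were 6 to 9. With replicate 3 alone, the GATA motif share was 29.2%, beside 23.4% of all summits, and the RGKTCA share 33.3%, beside 29.9%. With replicate 1 alone these were 25%, beside 24.2%, and 30%, beside 30.1%, so the RGKTCA share was near that of all summits with either replicate. With 5 kb added to the spans, srp had 4 optimal summits in place of 2, and with none added GATAe had 2 in place of 4. Of the summits added at srp, that at chr3R:16008512 also lay in the GATAe window, 593 bp from a GATAe start site.

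No paired analysis was possible because the study has 1 group. Read depth is unknown, so the lists show what passed the authors' thresholds and not what was absent.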
